A study of Arabidopsis thaliana with 4 samples.

Results

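The sulfate transporter genes of SULTR groups 1 to 3 were examined in roots of Arabidopsis thaliana grown with little or ample phosphate. The genes were chosen by identifier: SULTR1;1 to SULTR1;3, both genes of group 2, and SULTR3;1 to SULTR3;5, which makes 10 of the 27655 genes of the deposited table. The study asked about cis-zeatin, a cytokinin, in the response of roots to phosphate starvation, and compared wild-type Columbia (Col-0) seedlings kept for 8 days on 5 µM phosphate (low_Pi, 2 libraries) or on 625 µM phosphate (plus_Pi, 2 libraries). Polyadenylated RNA of whole roots was sequenced. The name of the table calls the roots dark grown, and the sample labels do not mention light.

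Plants take up sulfur as sulfate, mostly through proton-coupled carriers of the SULTR family. Group 1 holds the high-affinity carriers: SULTR1;1 and SULTR1;2 bring sulfate into the root epidermis and cortex, and SULTR1;3 works in companion cells of the phloem. Group 2 holds low-affinity carriers of vascular tissue. Group 3 is a mixed set that takes in a partner of a group 2 carrier in the root stele and carriers of the chloroplast envelope. Sulfate and phosphate supply are linked in plants, because sulfolipids replace part of the membrane phospholipids when phosphate is short. The transcription factor PHR1 directs much of the phosphate starvation response through a short promoter element called P1BS, and in Arabidopsis the induction of the phloem carrier gene by phosphate starvation has been tied to PHR1.

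Upstream sequences are shown for the member with the largest difference between the groups (SULTR1;3, chr1:7817359-7817608), the most abundant member (SULTR1;2, chr1:29327265-29327514) and the one vascular carrier gene of group 2 that was higher on low phosphate (SULTR2;1, chr5:3192767-3193016). Each is the 250 bases before the annotated gene start in the RefSeq annotation of build TAIR10.1, read 5′ to 3′ on the plus strand, which is the strand of all 3 genes. Capitals mark matches to P1BS (letters GNATATNC, which read the same on both strands). Coordinates belong to that reference, since the deposited table holds gene identifiers only.
SULTR1;3: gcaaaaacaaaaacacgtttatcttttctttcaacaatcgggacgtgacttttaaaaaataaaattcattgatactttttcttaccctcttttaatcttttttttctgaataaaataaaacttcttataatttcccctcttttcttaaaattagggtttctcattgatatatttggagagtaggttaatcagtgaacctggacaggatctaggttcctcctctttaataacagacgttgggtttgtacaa
SULTR1;2: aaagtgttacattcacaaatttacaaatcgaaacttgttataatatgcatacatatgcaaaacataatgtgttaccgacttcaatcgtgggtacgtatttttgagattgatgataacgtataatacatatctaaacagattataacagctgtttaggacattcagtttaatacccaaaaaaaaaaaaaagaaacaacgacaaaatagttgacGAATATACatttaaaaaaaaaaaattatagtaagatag
SULTR2;1: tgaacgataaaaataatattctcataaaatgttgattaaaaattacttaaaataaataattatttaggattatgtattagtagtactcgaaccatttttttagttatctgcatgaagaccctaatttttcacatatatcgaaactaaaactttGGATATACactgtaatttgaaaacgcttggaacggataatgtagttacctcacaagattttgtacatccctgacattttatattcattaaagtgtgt
P1BS began at -38 in the second sequence and at -97 in the third, counted from the gene start. In the window from 250 bases before to 50 bases after the start, 2 of 10 members held P1BS, against 6.25% of 27443 protein-coding promoters of the same length. The core of the sulfur-responsive element SURE (GAGAC, either strand), an element described upstream of a group 1 gene, was found in 1 of 10 members, SULTR3;2, and in 32.8% of promoters. With 1000 bases before the start, a window chosen after the data were seen, P1BS was in 4 of 10 members against 20.9% of promoters, and the SURE core was in 6 of 10 against 74.5%. The phloem carrier gene, with the largest difference, held neither set of letters in either window. Sites more than 1000 bases before the start, for any member, would not be seen in these windows.

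The third gene is also a known target of the microRNA miR395, which sulfate starvation induces and which also directs cleavage of ATP sulfurylase transcripts. The 6 miR395 genes of the reference give 2 mature sequences with 1 shared seed, bases 2 to 8, shown in capitals. The best-matching site of the transporter and the sites of 3 ATP sulfurylase genes are shown beneath them, as DNA, with capitals for bases that form a standard pair with miR395a.
miR395a, d and e: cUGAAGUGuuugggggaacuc
miR395b, c and f: cUGAAGUGuuuggggggacuc
SULTR2;1: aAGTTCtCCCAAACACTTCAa
APS1: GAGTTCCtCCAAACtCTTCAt
APS3: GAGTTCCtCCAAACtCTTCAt
APS4: GAGTTCCtCCAAACACTTCAt
The transporter site lies in the coding sequence at chr5:3193268-3193288 and pairs at 18 of 21 bases, with 1 further G-U wobble. The APS4 site pairs at 19 bases. The best site in each of the other 9 members paired at only 10 to 14 bases. Levels of miR395 itself were not analysed here.

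On low phosphate, 3 of the 8 genes that passed a filter on low values were at least 2-fold higher and 1 was at least 2-fold lower, against 4.58% and 4.47% of all genes that passed it. SULTR1;3, SULTR1;1 and SULTR2;1 were the higher members and SULTR2;2 was the lower one. SULTR1;2, by far the most abundant member, was at 0.579 times its plus_Pi value. Of group 3, 3 members lay between 1.11 and 1.45 times their plus_Pi values, and the other 2 were below the filter, with values of at most 39 in any library.

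The values are the authors' normalized counts, whole numbers whose normalization is not given in the sources used here. A log2 difference is low_Pi minus plus_Pi, taken after 41.5 (a share of 1 in 1000000 of the mean column total) was added to each value, which understates differences of weakly expressed genes. A gene was called at a 2-fold difference if its mean reached 41.5. The filter left 18729 genes in all and 8 of the 10 members, and those 8 had a median log2 difference of 0.46, against -0.26 for all genes tested. The chi-square per gene between the 2 libraries of a group was 0.277 for low_Pi and 0.437 for plus_Pi, where independent libraries give about 1 or more if the values are on the scale of reads. A scaling of the counts would change this statistic, and the scaling is unknown, so whether the libraries are independent could not be settled. As the cautious choice, each group was counted as 1 sample, and no gene has a replicate check, a standard deviation or a p-value. The groups did not overlap for 10 of 10 members, which says little here, as 84.4% of all genes tested also showed no overlap. In whole-root RNA, a lower or higher value cannot be told apart from fewer or more cells of the type that makes the transcript.

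**Figure D1:**
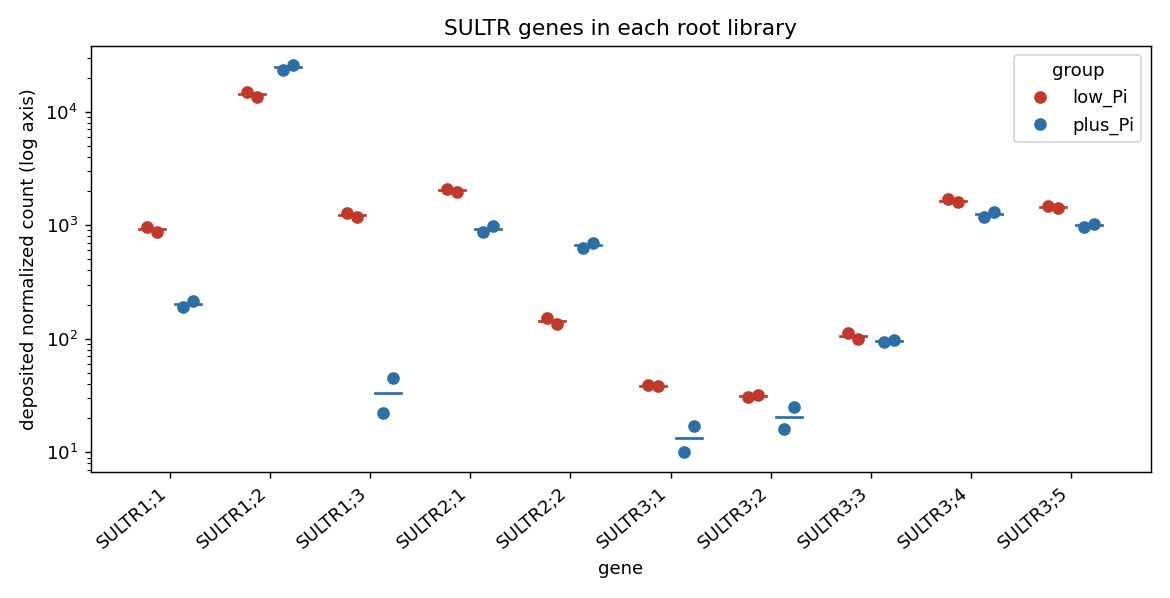
Deposited normalized count of each SULTR gene (log axis) in the 2 low_Pi and 2 plus_Pi libraries, with a bar at each group mean. The highest gene, of group 1, has 14839 and 13615 in low_Pi against 23463 and 25660 in plus_Pi, and the phloem carrier gene has 1275 and 1184 in low_Pi against 22 and 45 in plus_Pi.

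Group 1 held both the largest difference and the largest level. SULTR1;3 (AT1G22150, chr1:7817609-7821576), the phloem carrier of the group, reached 1275 and 1184 in low_Pi replicates 1 and 2, against 22 and 45 in plus_Pi replicates 1 and 2. Both low_Pi libraries were far above both plus_Pi libraries, and the gene was 1 of 40 (0.214% of those tested) at least 16-fold higher in low_Pi. It fell short of 16-fold without plus_Pi replicate 1 (log2 3.88) and with 208 added in place of 41.5. Its plus_Pi mean of 33.5 was under the filter limit of 41.5, so it passed the filter through its low_Pi values. The ratio of group means was 36.7, or 55.9 against plus_Pi replicate 1 alone and 27.3 against plus_Pi replicate 2 alone, so its size rests on which very low plus_Pi value is used. Its log2 difference was 4.10, and it moved to 2.58 and 5.10 when 208 and 4.15 were added in place of 41.5. Among the 15492 genes whose mean was at least 208, those with centred log2 values nearest to it over the 4 libraries were AT1G08310, PAP24 and AOC1, at distances of 0.071, 0.075 and 0.094 log2 units. These averaged 9258.5, 1853 and 822 in low_Pi, against 481, 66.5 and 12.5 in plus_Pi. As each group counted as 1 sample, such nearness means little more than a similar log2 difference with 41.5 added.

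The root uptake carriers of group 1 differed in opposite directions. SULTR1;1 (AT4G08620, chr4:5500313-5506313), which sulfate deprivation strongly induces, reached 961 and 880 in low_Pi, against 189 and 214 in plus_Pi. Its low_Pi libraries were the higher ones, with a ratio of 4.57 and a log2 difference of 1.99. SULTR1;2 (AT1G78000, chr1:29327515-29333220), the main uptake carrier of sulfate-replete roots, reached 14839 and 13615 in low_Pi, against 23463 and 25660 in plus_Pi, with a log2 difference of -0.79. Both low_Pi values were below both plus_Pi values, but the difference stayed under 2-fold in all 11 settings tried for it, and it was -0.53 relative to the median gene. Per kb of coding length, this main carrier was 15.3 and 15.4 times as abundant as the inducible one in the low_Pi libraries, against 123 and 119 times in the plus_Pi libraries.

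The 2 members of group 2 also differed in opposite directions. SULTR2;1 (AT5G10180, chr5:3193017-3197136), a low-affinity carrier of the root stele that serves the movement of sulfate to the shoot, reached 2096 and 1964 in low_Pi, against 879 and 981 in plus_Pi. Its low_Pi libraries were the higher ones, at a ratio of 2.18 and a log2 difference of 1.09, which became 0.98, just short of 2-fold, when 208 was added. SULTR2;2 (AT1G77990, chr1:29317767-29323352), a low-affinity carrier of vascular tissue, reached 151 and 136 in low_Pi, against 626 and 701 in plus_Pi. It was the only member called lower, at a ratio of 0.216 and a log2 difference of -1.93, or -1.31 with 208 added. Per kb of coding length, the stele carrier exceeded it by 13.9 and 14.4 times in low_Pi, but by 1.404 and 1.399 times in plus_Pi. A non-coding gene, AT1G77992, overlaps this lower member on the opposite strand over 942 bases, and the protocols do not mention strand, so reads of that RNA may be among those counted. By the same distance as above, which reflects little more than the log2 difference, the genes nearest to SULTR2;2 were SAG21, GSL09 and AT2G33830. Their distances were 0.016, 0.025 and 0.026, with log2 differences of -1.94, -1.95 and -1.93.

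No member of group 3 was called in either direction. SULTR3;5 (AT5G19600), which raises sulfate transport by the stele carrier of group 2 when both are present, reached 1493 and 1407 in low_Pi, against 962 and 1033 in plus_Pi, a log2 difference of 0.52. SULTR3;4 (AT3G15990), also described as the vascular phosphate carrier SPDT, reached 1698 and 1599 in low_Pi, against 1188 and 1312 in plus_Pi, a log2 difference of 0.39. For both genes the low_Pi libraries were the higher ones, by less than 2-fold in all 11 settings tried. The SPDT gene overlaps MFP1 on the opposite strand by 140 bases, and MFP1 had a mean of 391.25 over the 4 libraries. SULTR3;3 (AT1G23090) reached 113 and 99 in low_Pi, against 93 and 98 in plus_Pi, so the nearest libraries of the groups were 1 unit apart. SULTR3;1 (AT3G51895), a chloroplast carrier, reached 39 and 38 in low_Pi, against 10 and 17 in plus_Pi, a ratio of 2.85 between very low values. SULTR3;2 (AT4G02700) reached 31 and 32 in low_Pi, against 16 and 25 in plus_Pi. These last 2 genes were below the filter, each with a mean of 26. The log2 difference of SULTR3;1 was 0.54, or 1.30 with 4.15 added, so its size is set by the added constant. SULTR3;2 overlaps NET1C on the opposite strand by 96 bases, and NET1C had a mean of 1420, so even its few counts are uncertain. Reads shared between members are less of a concern, since none of the 50-base stretches within single exons of the 10 genes occurred elsewhere in the genome.

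The order of levels within the family, per kb of coding length, differed between the groups. In low_Pi, SULTR1;2 (mean 7251 per kb) was followed by SULTR2;1 (998), SULTR3;4 (840), SULTR3;5 (761), SULTR1;3 (624), SULTR1;1 (472), SULTR2;2 (70.6), SULTR3;3 (55.9), SULTR3;1 (18.2) and SULTR3;2 (16.2). In plus_Pi the same genes, named in the same sequence, had means of 12519, 457, 637, 524, 17.0, 103, 326, 50.4, 6.39 and 10.6 per kb. The phloem carrier was thus at rank 5 of 10 in low_Pi and rank 8 in plus_Pi, and the stele carrier of group 2 at rank 2 in low_Pi and rank 4 in plus_Pi. Neighbours in the low_Pi order had libraries that did not overlap. In plus_Pi, the phloem carrier with 11.2 and 22.8 per kb overlapped SULTR3;2 with 8.24 and 12.9 per kb. This describes the deposited libraries and is no test of the order, since each group counts as 1 sample. All ranks were the same per kb of exon length.

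The main uptake carrier made up 65.5% and 65.1% of the summed level per kb in the low_Pi libraries, against 85.5% and 85.4% in the plus_Pi libraries. The phloem carrier made up 5.60% and 5.63% in low_Pi, against 0.080% and 0.149% in plus_Pi. The stele carrier of group 2 made up 8.92% and 9.05% in low_Pi, against 3.09% and 3.15% in plus_Pi. The higher values of these minor members did not offset the lower value of the main carrier in the family sum. Summed over the 10 genes, values were 539 and 540 in 1000000 of the column total in low_Pi, against 676 and 674 in plus_Pi. That is a ratio of 0.799, and the median gene was also lower in low_Pi, at log2 -0.19 with a common column total. Whether the family sum differed from that general shift was not tested. Without the main carrier the other 9 genes summed to 187 and 189 in 1000000 in low_Pi, against 98.2 and 99.2 in plus_Pi. The shares depend on the length used: by exon length, which for the main carrier takes in 7 annotated transcripts, its share was 51.9% in low_Pi and 76.8% in plus_Pi.

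**Figure D2:**
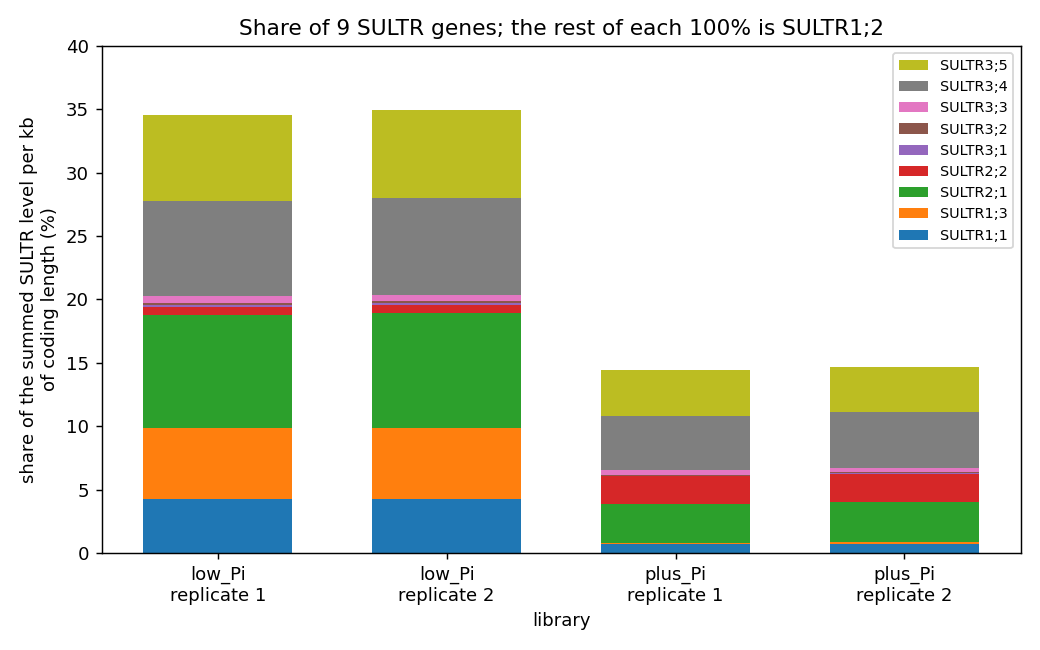
Share of the summed SULTR level per kb of coding length (%) held by each of the 9 genes other than the main uptake carrier in each library, as stacked bars that leave out that carrier. The bars are taller in both low_Pi libraries than in both plus_Pi libraries, and the phloem carrier segment is 5.60% and 5.63% in low_Pi against 0.080% and 0.149% in plus_Pi.

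Most genes of the steps that follow sulfate uptake lay within 2-fold, as did most of all genes tested. Of all genes tested, 4.58% were called higher and 4.47% lower, the shares to set beside the counts of the lists below. Of 16 genes of sulfate activation and reduction to cysteine, 2 were called higher and 0 lower, with a median log2 difference of 0.18. APR1, one of the enzymes that reduce activated sulfate, reached 11098 and 10350 in low_Pi, against 2768 and 3164 in plus_Pi, or 1.84 on the log2 scale. SERAT2;2, a serine acetyltransferase that supplies the carbon skeleton of cysteine, reached 12044 and 11165 in low_Pi, against 4526 and 4994 in plus_Pi, or 1.28 on the log2 scale. Both genes were higher in both low_Pi libraries. The ATP sulfurylase genes with a miR395 site, APS1, APS3 and APS4, had log2 differences of 0.51, 0.21 and 0.36, and none was called. Of 4 APS kinase genes, which feed sulfation of metabolites, 1 was called higher and 1 lower. APK2 reached 6856 and 6378 in low_Pi, against 2476 and 2803 in plus_Pi, a log2 difference of 1.31. APK4 was nearly absent on low phosphate, at 15 and 11 in low_Pi, against 239 and 258 in plus_Pi, a ratio of 0.0523. Its log2 difference was -2.41, and it moved to -1.05 and -3.89 when 208 and 4.15 were added. The glutathione synthesis genes GSH1 and GSH2 were at -0.14 and -0.48.

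Of 4 further carriers of the same superfamily, none was called. SULTR4;1 and SULTR4;2, which release sulfate from the vacuole, were at 0.28 and -0.72, and the molybdate carriers MOT1 and MOT2 at 0.25 and -0.14. All 3 sulfolipid synthesis genes were called higher, with SQD2 at log2 4.63, SQD1 at 3.59 and UGP3 at 3.22. Of 9 genes known as markers of sulfur status, 4 were called higher and 0 lower. These were LSU4 (3.57), LSU2 (2.92), LSU1 (2.07) and LSU3 (1.30, or 0.86 with 208 added), while the sulfur deficiency gene SDI1 was at 0.77. Of the regulators, SLIM1, which directs the response to low sulfur, was at -0.18, and PHR1 and its relative PHL1 were at -0.57 and -0.43.

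**Figure D3:**
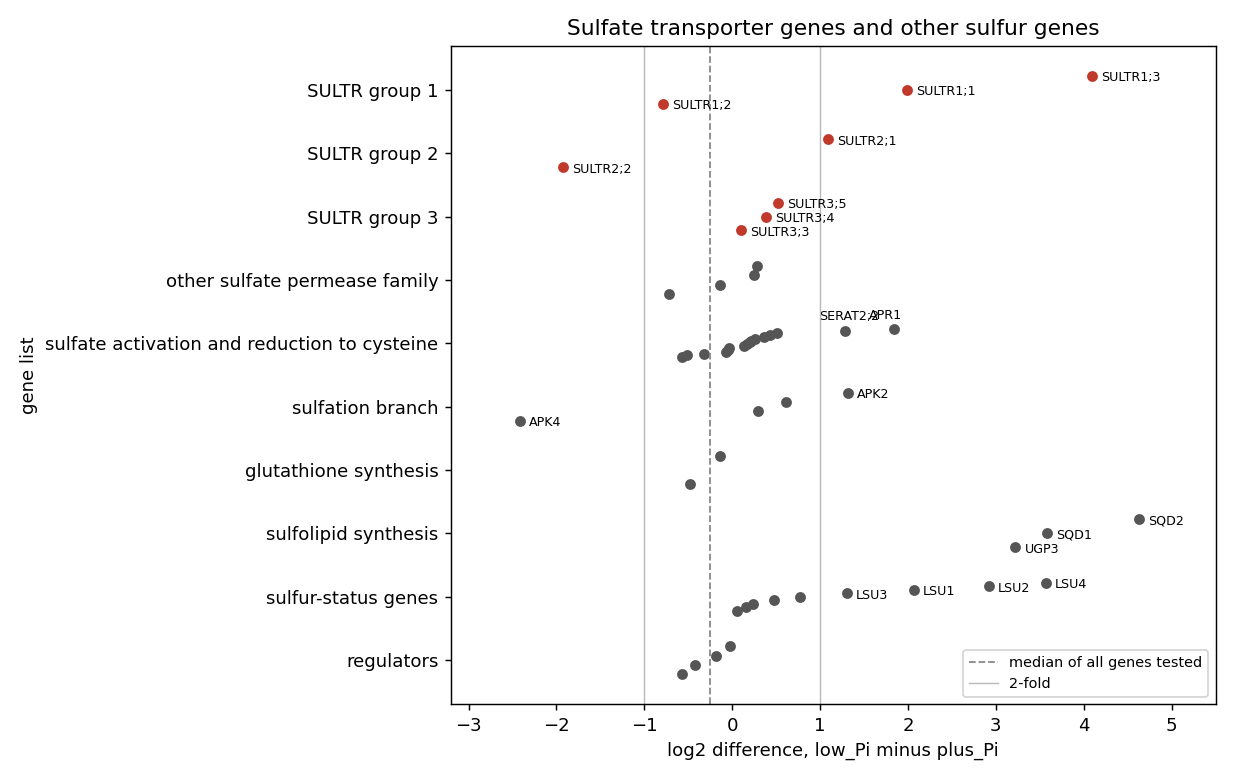
Log2 difference (low_Pi minus plus_Pi, horizontal axis) of each SULTR gene (red) and of genes of other sulfur lists (grey) that passed the filter, by list. The dashed line is the median of all genes tested (-0.26) and the solid lines mark 2-fold. The phloem carrier gene at 4.10 lies among the 3 sulfolipid genes, which span 3.22 to 4.63.

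Column totals ran between 38831704 and 44635953, and the phosphate starvation marker IPS1 stood at 27943 and 26144 in low_Pi, compared with 99 and 412 in plus_Pi. All markers of root tissues that were looked at were detected. Root hair markers, from cells in which uptake carriers of group 1 act, were called higher in 3 of 3 cases, with summed values of 38449 and 35524 in low_Pi, against 6825 and 7885 in plus_Pi. None of 4 phloem markers was called, with summed values of 12749 and 11844 in low_Pi, against 8752 and 9578 in plus_Pi. The companion cell gene SUC2, at log2 0.71, had the largest difference of them. SEOA was at 0.32, and SEOB and APL were at 0.03 and 0.08, with groups that overlapped. None of 4 xylem markers was called, with sums of 26020 and 23924 in low_Pi, against 19648 and 21680 in plus_Pi. Likewise none of 4 endodermis markers was called, with sums of 17460 and 16199 in low_Pi, against 12561 and 13870 in plus_Pi. Neither of 2 cortex markers was called, with sums of 676 and 622 in low_Pi, against 911 and 972 in plus_Pi. One of them, CO2, was at 51 and 47 in low_Pi, against 113 and 116 in plus_Pi, a ratio of 0.428 and a log2 difference of -0.79. The main uptake carrier, whose values were lower in low_Pi, acts in the epidermis as well as the cortex. Root hair markers, which are of the epidermis, were higher in low_Pi and the cortex markers lower. What either means for the main uptake carrier was not tested. Green tissue markers, for a tissue outside roots that a sample could hold, were called lower in 3 of 6 cases, with sums of 1952 and 1805 in low_Pi, against 3315 and 3644 in plus_Pi, and none was at 0. The part of these tissues in the SULTR differences was not tested.

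**Figure D4:**
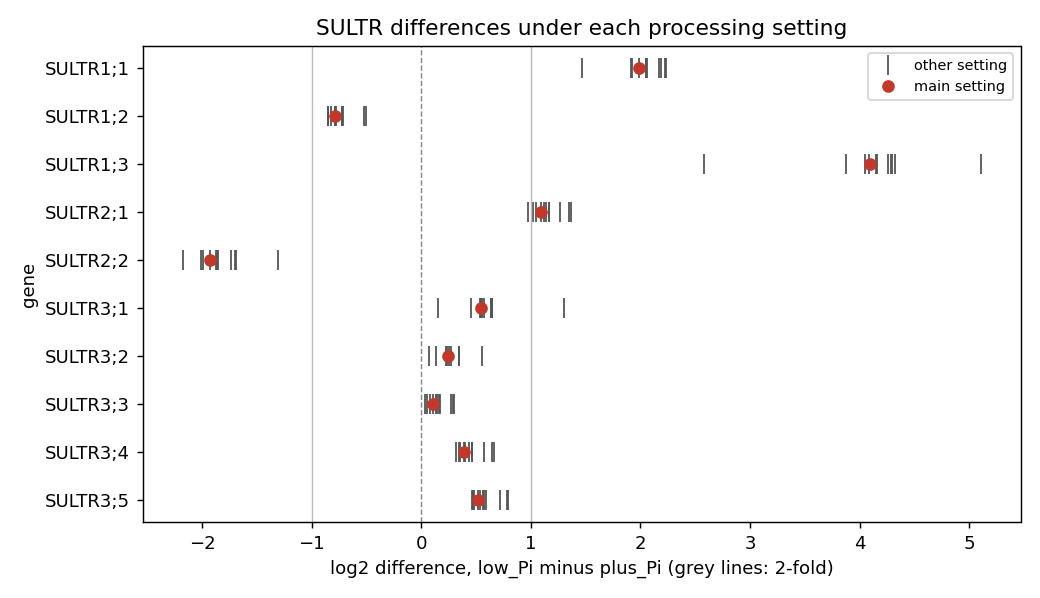
Log2 difference (low_Pi minus plus_Pi) of each SULTR gene under the main setting (red point) and under each of 11 other settings (grey ticks), with lines at 2-fold. The phloem carrier gene spreads from 2.58 to 5.10 and stays above 2-fold, and the stele carrier of group 2 spreads from 0.98 to 1.36 across the line.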

How the data were processed

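RNA of 4 root libraries was analysed from 1 table of 27655 genes. The authors deposited whole numbers that they call normalized counts, treated here as a score whose read depth is unknown, so count models were left out. Software named in the submitters' processing notes, with no role given, comprises HISAT2, HTSeq, edgeR, FastQC and CASAVA 1.4. Normalization, build and annotation are not given in the sources used here. The low_Pi column of replicate 2 was matched to its group by name only. Differences were computed over the whole table in Python 3.11.15 with a pseudocount of 41.5 and a 2-fold size rule, because each group counted as 1 sample. The calculation was checked on simulated data. limma 3.58.1 in R 4.3.3 was an alternative. Gene models and sequences came from RefSeq TAIR10.1, which named 27445 identifiers. Whether libraries came from separate cultures is not stated. All members were named, with pathway genes at least 2-fold apart or the 2 most abundant of a list, and other list genes were named after their values were seen. Members and lists were chosen with earlier results of these data known.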

Additional observations from a re-analysis of the deposited data

How the results depend on the processing

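Across 11 settings for the log2 difference (pseudocounts of 4.15 and 208, 4 scalings, linear means and the omission of each library), no SULTR member changed sign, and the 2-fold calls of SULTR1;1, SULTR1;3 and SULTR2;2 stayed. SULTR2;1 was at 0.98 with a pseudocount of 208, and SULTR3;1, below the filter, was at 1.30 with 4.15. Scaling by a factor per library moves all genes in the same direction: the median of all genes was 0.00028 with median-of-ratios scaling. The median of the members was then 0.72, with 0.71 for trimmed-mean scaling and 0.64 for quantile normalization. Quantile normalization does not move all genes alike, and under it SULTR1;2 went from -0.79 to -0.82. The median of the members ran from 0.40 to 0.51 without 1 library, and the counts stayed at 3 higher and 1 lower. The 2 libraries of a group were close to each other, so leaving out 1 of them was a weak check. At 4-fold, 1 member was higher and 0 were lower, because the next values in each direction (1.99 and -1.93) lie just under it. At 1.5-fold, 2 were lower. The shares of all genes past these other rules were not worked out here, so these counts say nothing about the members as a set. limma over the 4 columns called 5 members higher and 2 lower, and with the replicate block 3 higher and 2 lower, but it called 69.1% and 38.5% of all genes, and its error covers only the spread between columns. No label says what a replicate number shares, so the libraries were treated as unpaired, and the deviations of the same-numbered columns (r = -0.11 across genes) come from too few libraries to settle it. Of 209 values for 19 other named sulfur and phosphate genes, 208 kept their side of the 2-fold rule and LSU3 did not. The sign was not kept by GSH1 and MOT2, both at -0.14 in the main setting. Each was at 0.13 with median-of-ratios and 0.12 with trimmed-mean scaling, and MOT2 was at 0.05 with quantile normalization. The direction of these small differences thus depends on the scaling. Depth is unknown, so values near those of the phloem carrier gene in plus_Pi (22 and 45) are the least certain.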
